A study of Homo sapiens with 12 samples.

Results

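The BCL2 family sets the threshold for apoptosis at the outer mitochondrial membrane. 9 of its genes were followed here: the pro-survival BCL2, BCL2L1 (which encodes BCL-XL) and MCL1, and the pro-death BAK1, a membrane pore former, with the BH3-only genes BCL2L11 (BIM), BID, BAD, BIK and PMAIP1 (NOXA). They were chosen by name as regulators of apoptosis that include reported miRNA targets, and every probe set of the array that lists one of them as its single gene symbol was taken. This gave 9 of 19775 genes and 31 of 41091 such probe sets.

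The samples came from Jurkat cells, an established human T-cell leukaemia line, transduced with a construct that encodes miR-21 (miR-21 overexpression) or with the matching control vector. From each came RNA bound in an immunoprecipitation (IP) of AGO2, an Argonaute protein that carries miRNAs and the mRNAs paired to them, RNA from an IP with control IgG, and Total RNA. There were therefore 6 groups: miR-21 AGO2 IP, control AGO2 IP, miR-21 IgG IP, control IgG IP, miR-21 Total RNA and control Total RNA, each with 2 arrays numbered replicate 1 and 2, or 12 arrays in all. All cells grew in RPMI with 10% serum. The labels do not say how many clones carried a construct or whether the replicates were separate cultures, so the p-values measure the spread between these arrays, which may be technical. For Total RNA 1 ug was labelled and for either IP 100 ng, so a difference between IP RNA and Total RNA and a difference in the amount labelled cannot be told apart.

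Anti-apoptotic proteins such as BCL2, BCL-XL and MCL1 hold BAK1 and the related BAX in check. BH3-only proteins, which are raised or activated by stress, bind the anti-apoptotic proteins or the pore formers, and the freed pore formers let cytochrome c out of the mitochondrion. In T cells BIM is a main executor of death after growth factor withdrawal, and MCL1 is a short-lived protein made from a short-lived mRNA.

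Several of these mRNAs have been reported as miRNA targets: BCL2L11 for miRNAs of the MIR17HG cluster, BCL2 for miR-15a and miR-16, and MCL1 for miR-29b. The mature sequences of those miRNAs and of miR-21 are given from RefSeq (GRCh38.p14), 5′ to 3′, with the seed, bases 2 to 8, in capitals, because an AGO2 IP is meant to enrich mRNAs paired to such seeds.
hsa-miR-21-5p: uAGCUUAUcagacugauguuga
hsa-miR-17-5p: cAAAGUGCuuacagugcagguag
hsa-miR-20a-5p: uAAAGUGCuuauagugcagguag
hsa-miR-92a-3p: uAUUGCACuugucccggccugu
hsa-miR-15a-5p: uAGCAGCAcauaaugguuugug
hsa-miR-16-5p: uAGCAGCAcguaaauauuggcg
hsa-miR-29b-3p: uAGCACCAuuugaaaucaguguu
The mature miR-21 lies at chr17:59841273-59841294 on the plus strand, within the VMP1 gene. Its seed is carried by 2 of 2370 mature miRNA names in the table and differs from the seeds of the other 6 sequences. miR-17-5p and miR-20a-5p share 1 seed, and both lie with miR-92a-3p in MIR17HG, at chr13:91350618-91350640, chr13:91351072-91351094 and chr13:91351361-91351382 on the plus strand. miR-15a-5p (chr13:50049167-50049188) and miR-16-5p (chr13:50049027-50049048) share another seed and lie on the minus strand in DLEU2. miR-29b-3p lies at chr7:130877467-130877489 on the minus strand. The levels of these miRNAs, miR-21 included, were not analysed here.

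The values are the authors' RMA values on the log2 scale, and levels and differences below are log2. The 2 replicate numbers had different scales: the array means were 4.39 to 4.41 in replicate 1 and 5.26 to 5.27 in replicate 2, so levels are read only within a replicate number. For either construct, the immunoprecipitations with AGO2 antibody and with IgG of replicate 2 resembled each other closely. Their values differed with an SD of 0.195 over all probe sets with the control vector (r = 0.996) and of 0.342 with the miR-21 construct, against 0.821 and 0.764 in replicate 1. The 2 Total RNA arrays of replicate 2, of different constructs, differed with an SD of 0.221. The comparisons between fractions below are therefore also given within each replicate number. There the 2 constructs took the place of replicates, so those p-values measure no spread between replicates. Fraction comparisons and the larger construct differences are also given without 2 arrays, 1 of each close pair. These were the control AGO2 IP and the miR-21 IgG IP of replicate 2. That leaves 1 array in each of those 2 groups, and in replicate 2 no AGO2 IP and IgG IP of the same construct. All 12 T-cell markers examined had a mean level of 4.02 or more (the median of the array's probe sets that are not controls), against 2 of 5 B-cell, 1 of 4 monocyte, 1 of 2 erythroid and 2 of 4 epithelial markers. The 3′ minus 5′ difference of ACTB probe sets, a measure of RNA integrity and labelling, was 1.97 to 4.0 in AGO2 IP, 2.08 to 3.48 in IgG IP and 1.35 to 3.53 in Total RNA. The control AGO2 IP of replicate 1 stood highest, and the part of this measure in the results was not tested.

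**Figure D1:**
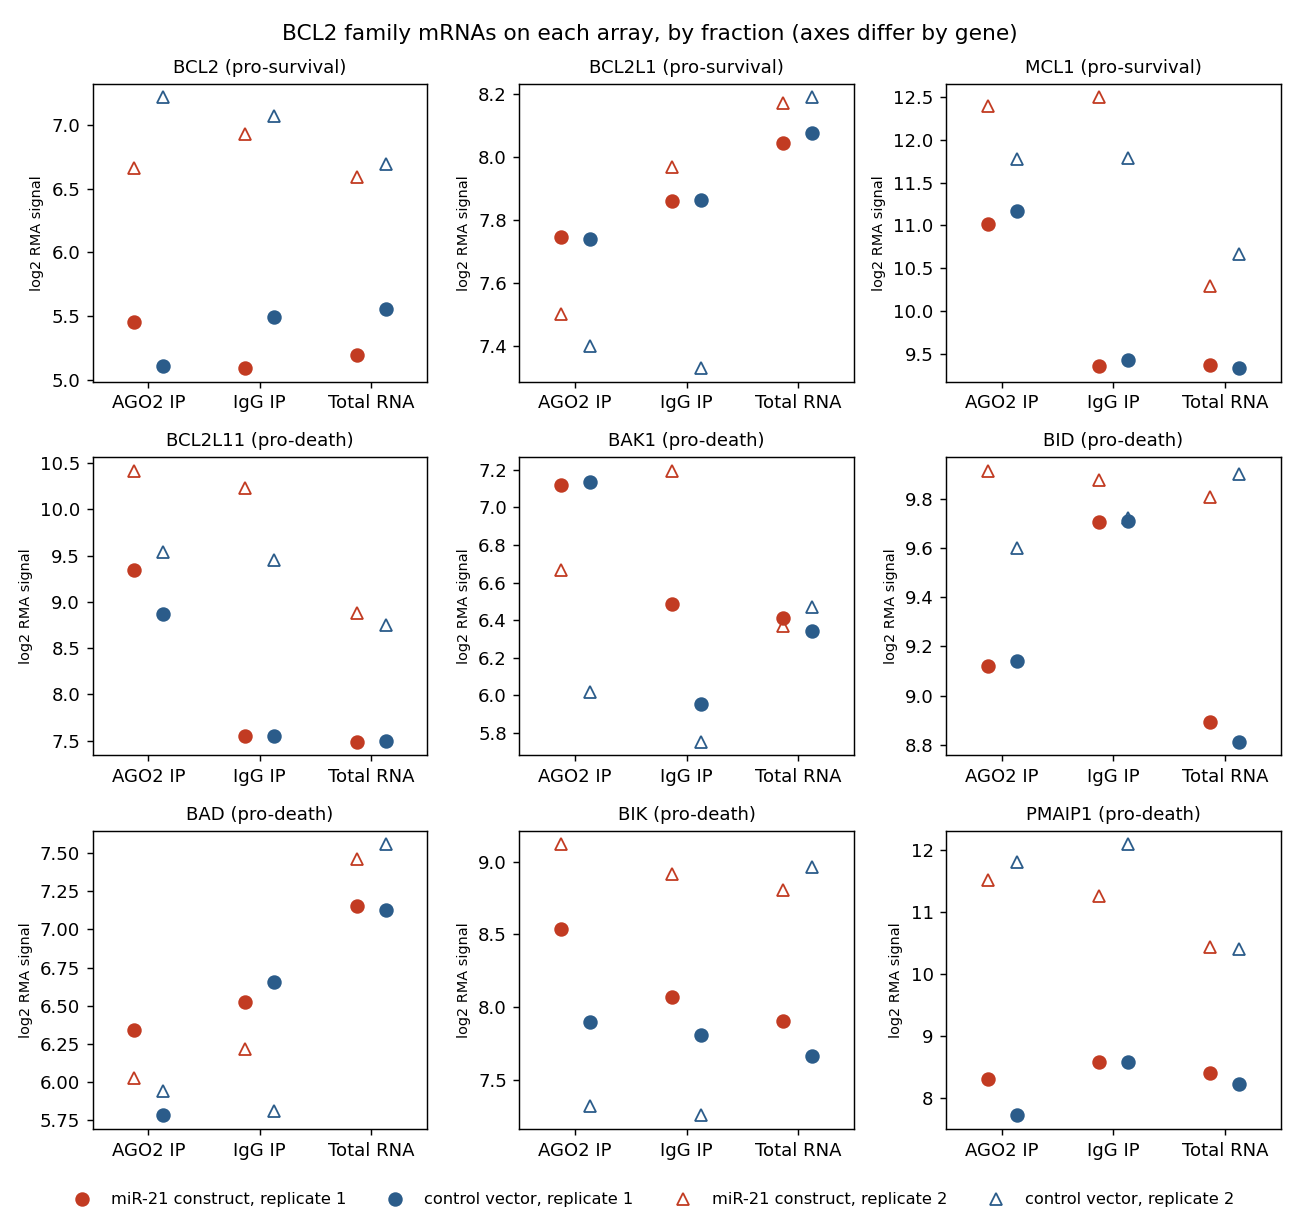
Deposited log2 RMA level of the probe set with the highest mean for each of the 9 genes, in every array; fractions run along the horizontal axis, colour marks the construct and the marker shape the replicate number. MCL1 and BCL2L11 lie higher in AGO2 IP than in Total RNA in both replicates, and BAD lies lower; PMAIP1 lies at 7.72 to 8.59 in replicate 1 and at 10.40 to 12.08 in replicate 2.

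AGO2 IP was first compared with Total RNA, which asks which of these mRNAs were over- or under-represented in the AGO2-bound RNA. MCL1 and BCL2L11 were higher in AGO2 IP in all 4 pairs of arrays of the same construct and replicate, and BAD was lower in all 4. The tests used limma on the 23123 probe sets with a single gene symbol and a mean level of at least 4.02, with Benjamini-Hochberg adjustment and a threshold of 0.05. In the fit with group means alone, no probe set passed (0%; 1848 had an unadjusted p under 0.05, and the smallest adjusted p was 0.439). Arrays with the same replicate number deviated together from their group means, with correlations of 0.429 to 0.875 over the 15 pairs of groups, so the same fit with the replicate number as a block is given beside it. With the block, 13.8% of probe sets passed (3.89% higher and 9.91% lower in AGO2 IP). Among the 9 genes, each represented by its probe set with the highest mean, 2 rose and 1 fell. Over all 26 tested probe sets of the 9 genes, 5 rose and 3 fell. The other 5 probe sets, 1 each of BCL2, BCL2L1, MCL1, BCL2L11 and BAD, were below the level filter.

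MCL1, the short-lived pro-survival protein, gave the largest difference. Probe set 200797_s_at read 11.02 (miR-21) and 11.17 (control) in the AGO2 IPs of replicate 1, against 9.38 and 9.33 in the Total RNA arrays. In replicate 2 it read 12.39 (miR-21) and 11.78 (control) in AGO2 IP, against 10.29 and 10.67 in Total RNA. The AGO2 IP and Total RNA arrays did not overlap within either replicate, and 10.4% of all tested probe sets were higher in AGO2 IP in this way. The log2 difference was 1.67 (SE 0.39, 95% interval 0.79 to 2.56; adjusted p = 0.0278 by limma with the replicate block and 0.692 without it).

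With the block, 200798_x_at rose by 1.88 and 214057_at by 1.55 as well. The remaining 2 tested MCL1 probe sets were dim in Total RNA, with levels there near or below the array medians (3.55 to 3.67 in replicate 1 and 4.38 to 4.48 in replicate 2), so that they passed the level filter through the IP arrays. Their differences were 2.46 for 214056_at (called) and 0.70 for 200796_s_at (adjusted p = 0.0755), which are no independent support. On 214056_at the AGO2 IPs of replicate 1 read 6.39 (miR-21) and 6.54 (control), against 3.57 and 3.47 in Total RNA.

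BCL2L11 encodes BIM, which binds all the main anti-apoptotic members. On 225606_at it read 9.34 (miR-21) and 8.86 (control) in the AGO2 IPs of replicate 1, against 7.49 in both Total RNA arrays. In replicate 2 it read 10.42 (miR-21) and 9.54 (control) in AGO2 IP, against 8.88 and 8.75 in Total RNA. All 4 AGO2 IP arrays stood above the Total RNA arrays of their replicate, as they did for 10.4% of all tested probe sets. The difference was 1.39 (SE 0.31, interval 0.68 to 2.09; adjusted p = 0.0249 with the replicate block and 0.751 without it).

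The probe sets of BCL2L11 disagreed. With the block, 1555372_at fell, with a difference of -1.28 (adjusted p = 0.0229). It read 3.62 (miR-21) and 3.78 (control) in the AGO2 IPs of replicate 1, against 4.66 and 4.46 in Total RNA, and 4.21 and 4.62 in the AGO2 IPs of replicate 2, against 5.96 and 6.27 in Total RNA. Its AGO2 IP levels lay near the array medians, so this probe set was dim there. The other 4 tested probe sets had differences of -0.52 to 0.18 and did not pass. So 1 of 6 tested BCL2L11 probe sets rose, 1 fell and 4 did not pass, and the gene-level statement rests on the probe set with the highest signal.

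BAD, a BH3-only protein controlled by survival-factor phosphorylation, was lower in AGO2 IP. Probe set 209364_at read 6.34 (miR-21) and 5.78 (control) in the AGO2 IPs of replicate 1, against 7.15 and 7.13 in Total RNA. In replicate 2 the AGO2 IPs read 6.02 (miR-21) and 5.94 (control), against 7.47 and 7.56 in Total RNA. The groups did not overlap in either replicate, and 20.2% of all tested probe sets were lower in AGO2 IP in this way. BAD fell by 1.31 (SE 0.24, interval -1.86 to -0.76; adjusted p = 0.0165 with the replicate block and 0.439 without it). The second tested BAD probe set, 1861_at, fell by 1.56 (adjusted p = 0.00972 with the block), so both agreed in direction.

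These calls depend on single arrays. With the block, MCL1 passed in 7 of the 12 fits that left out 1 array (differences 1.37 to 1.98), BCL2L11 in 6 (1.14 to 1.63) and BAD in 8 (-1.47 to -1.15). All 3 calls were lost without the miR-21 AGO2 IP of replicate 1 (MCL1 1.60, BCL2L11 1.26, BAD -1.37) or of replicate 2 (1.75, 1.51 and -1.24), and without the miR-21 (1.46, 1.36 and -1.19) or control (1.59, 1.32 and -1.15) Total RNA of replicate 2. MCL1 (1.37) and BCL2L11 (1.14) were also lost without the control AGO2 IP of replicate 1, and BCL2L11 (1.42) without the miR-21 Total RNA of replicate 1. The adjusted p in these fits was 0.0584 to 0.114, and the direction was kept in each. Within replicate 1 alone, where the constructs serve as the pair, MCL1 (1.74), BCL2L11 (1.61) and BAK1 (0.75, adjusted p = 0.0403) rose and BAD (-1.08) fell, with 32.4% of all probe sets called. Within replicate 2 alone MCL1 (1.60), BCL2L11 (1.16) and PMAIP1 (1.24, adjusted p = 0.0131) rose and BAD (-1.53) fell, with 32.9% called. These values are of representative probe sets. The BCL2L11 probe sets 1555372_at (-1.71) and 1553096_s_at (-0.88) were called lower in that fit. Without the 2 close arrays of replicate 2, 19.9% of probe sets were called with the block, and MCL1 (1.90, adjusted p = 0.00863) and BCL2L11 (1.57, adjusted p = 0.00705) rose and BAD (-1.37, adjusted p = 0.0206) fell.

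**Figure D2:**
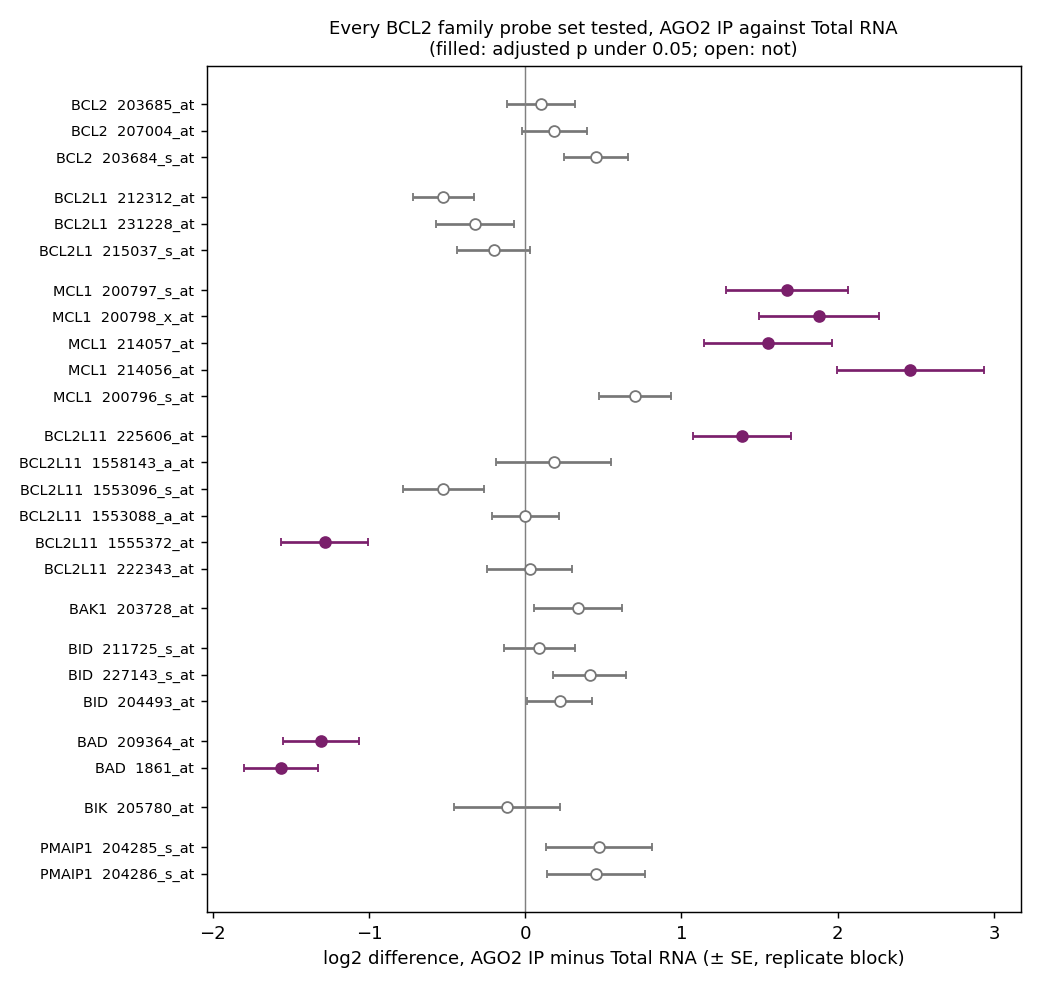
Log2 difference of AGO2 IP minus Total RNA for each of the 26 tested probe sets of the 9 genes. Bars show the SE on either side, from the fit with the replicate block, and filled points have an adjusted p under 0.05. All 5 MCL1 probe sets lie between 0.70 and 2.46. The lowest and the highest of these were dim in Total RNA and passed the level filter through the IP arrays, and the others lie between 1.55 and 1.88. Both BAD probe sets lie below -1.3, and the 6 BCL2L11 probe sets spread from -1.28 to 1.39.

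The remaining members did not pass in AGO2 IP against Total RNA. BCL2L1, which encodes BCL-XL, was lower in all 4 pairs, with a difference of -0.52 (SE 0.19, adjusted p = 0.107 with the block), and its 3 tested probe sets lay between -0.52 and -0.20. On 212312_at it read 7.75 (miR-21) and 7.74 (control) in the AGO2 IPs of replicate 1, against 8.04 and 8.08 in Total RNA. In replicate 2 it read 7.50 and 7.40, against 8.17 and 8.19. BCL2, a reported target of miR-15a and miR-16, had a difference of 0.10 (SE 0.22, interval -0.39 to 0.59), and its 3 tested probe sets lay between 0.10 and 0.45. BID, which caspase-8 cleaves to link death receptors to mitochondria, differed by 0.09 (interval -0.43 to 0.61), and its 3 probe sets lay between 0.09 and 0.41. BAK1 differed by 0.34 (interval -0.30 to 0.97) and BIK, a BH3-only protein of the endoplasmic reticulum, by -0.12 (interval -0.89 to 0.65).

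PMAIP1 encodes NOXA, the BH3-only partner that binds MCL1. Its difference was 0.47 (SE 0.34, adjusted p = 0.397 with the block), but its pairs split by replicate: -0.09 (miR-21) and -0.50 (control) in replicate 1, and 1.08 and 1.40 in replicate 2. Its level in replicate 1 was 8.31 (miR-21) and 7.72 (control) in AGO2 IP, against 8.40 and 8.22 in Total RNA. In replicate 2 it was 11.51 and 11.80 in AGO2 IP, against 10.43 and 10.40 in Total RNA.

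AGO2 IP against IgG IP asks whether the RNA came with AGO2 or with the beads and antibody. No probe set passed in either fit (0%; 44 had an unadjusted p under 0.05 without the replicate block and 1039 with it), so none of the 9 genes was called. The 2 largest differences were again those of BCL2L11 and MCL1. BCL2L11 differed by 0.84 (SE 0.31, interval 0.14 to 1.55; adjusted p = 0.881 with the block) and was higher in AGO2 IP in 4 of 4 pairs. MCL1 differed by 0.82 (SE 0.39, interval -0.07 to 1.71; adjusted p = 0.881) and was higher in 2 of 4.

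The replicates gave different answers for both genes. In replicate 1 MCL1 read 11.02 (miR-21) and 11.17 (control) in AGO2 IP, against 9.36 and 9.43 in IgG IP. In replicate 2 it read 12.39 and 11.78 in AGO2 IP, against 12.50 and 11.79 in IgG IP. BCL2L11 read 9.34 (miR-21) and 8.86 (control) in the AGO2 IPs of replicate 1, against 7.55 in both IgG IPs, and 10.42 and 9.54 in the AGO2 IPs of replicate 2, against 10.24 and 9.45. So both genes stood apart from IgG IP in replicate 1 and lay within 0.2 of it in replicate 2.

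Within replicate 1 alone 3 of the 9 genes rose over IgG IP, with 15% of all probe sets called and 9.04% called higher: MCL1 by 1.70 (adjusted p = 0.00335), BCL2L11 by 1.55 (adjusted p = 0.00784) and BAK1 by 0.91 (adjusted p = 0.0404). The 2 constructs stood in for replicates here. These limma p-values thus measure how alike the fraction differences of the constructs were in replicate 1, and no spread between replicates. BAK1 read 7.12 (miR-21) and 7.13 (control) in the AGO2 IPs of replicate 1, against 6.48 and 5.95 in IgG IP. Of the 26 probe sets 6 rose, which were 4 of MCL1 and 1 each of BCL2L11 and BAK1. The 4 of MCL1 include 214056_at, which passed the level filter through the IP arrays and is no independent support. Within replicate 2 alone no probe set passed (0%), MCL1 differed by -0.06 and BCL2L11 by 0.14. Without the control AGO2 IP and miR-21 IgG IP of replicate 2, 4.41% of probe sets passed with the block (3.64% higher in AGO2 IP). BCL2L11 then rose by 1.35 (adjusted p = 0.0337) and MCL1 differed by 1.46 (adjusted p = 0.0539).

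**Figure D3:**
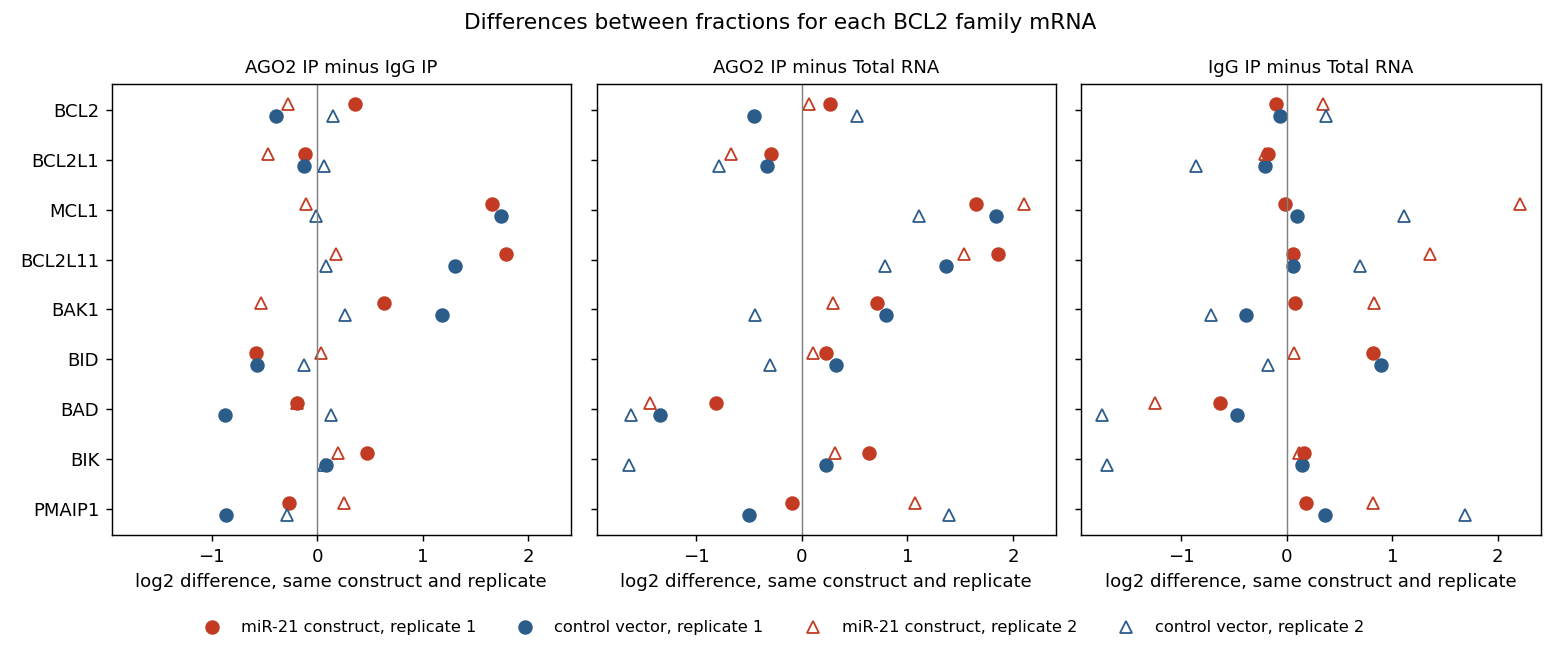
Log2 differences of the 9 genes between fractions, for each pair of arrays of the same construct and replicate number; panels show AGO2 IP minus IgG IP, AGO2 IP minus Total RNA and IgG IP minus Total RNA. In the AGO2 IP minus IgG IP panel the 2 MCL1 points of replicate 1 lie at 1.66 and 1.74 and those of replicate 2 at -0.11 and -0.01.

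The other 7 genes differed between AGO2 IP and IgG IP by -0.31 (BID) to 0.39 (BAK1), and the interval of each included 0. BIK was higher in AGO2 IP in 4 of 4 pairs, by 0.07 to 0.47. With arrays required to be apart the same way within each replicate number, 0 of the 26 probe sets were higher and 1 was lower in AGO2 IP, where 1.32% and 3.36% of all tested probe sets were.

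IgG IP against Total RNA measures what the immunoprecipitation carries without AGO2. No probe set passed without the replicate block (0%; 703 at an unadjusted p under 0.05), and 2.59% passed with it (0.29% higher and 2.31% lower in IgG IP). None of the 9 representative probe sets was among them, and of all 26 only 1861_at of BAD fell, with a difference of -1.13 (adjusted p = 0.0449). Without the 2 arrays named above its difference was -0.94 (adjusted p = 0.141), with 0.848% of all probe sets called. The representative BAD probe set differed by -1.03 (SE 0.24, adjusted p = 0.0652) and was lower in IgG IP in 4 of 4 pairs. It read 6.52 (miR-21) and 6.66 (control) in the IgG IPs of replicate 1, against 7.15 and 7.13 in Total RNA, and 6.21 and 5.81 in replicate 2, against 7.47 and 7.56. BAD thus lay below Total RNA in both kinds of IP in every pair.

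Here too the replicates differed. Within replicate 1 alone none of the 9 genes was called between IgG IP and Total RNA (2.68% of all probe sets were), and MCL1 differed by 0.04 and BCL2L11 by 0.06. Within replicate 2 alone 29% of probe sets were called, and MCL1 (1.66, adjusted p = 0.0098), PMAIP1 (1.25, adjusted p = 0.0146) and BCL2L11 (1.03, adjusted p = 0.0250) rose in IgG IP while BAD fell (-1.50, adjusted p = 0.00535). Of the other BCL2L11 probe sets, 1558143_a_at was called higher (0.74) and 1555372_at lower (-1.82) in that fit. In replicate 2 the 3 representative probe sets called higher in AGO2 IP than in Total RNA were therefore also called higher in IgG IP. The comparisons between fractions share arrays, so their values stand side by side and are not independent.

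The miR-21 construct was compared with the control vector within each fraction. Each array measures a bulk culture, so a change in the share of cells with an mRNA and a change in its amount per cell cannot be told apart. No probe set passed in any fraction in either fit (0%). With the replicate block, 781 had an unadjusted p under 0.05 in AGO2 IP, 225 in IgG IP and 7 in Total RNA, and 29, 3 and 0 did without it. Likewise none passed for the difference of the construct effect between AGO2 IP and IgG IP or between AGO2 IP and Total RNA. With the block, 107 and 157 probe sets had an unadjusted p under 0.05 for these interactions, and without it 1 and 4. The intervals show what 2 arrays a group could resolve: the SE of a construct difference was 0.28 (BCL2L1) to 0.55 (MCL1) with the block.

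In Total RNA the 9 genes lay close to 0, from -0.23 (BCL2) to 0.11 (PMAIP1). BCL2, proposed in other cells as a gene that miR-21 raises, read 5.19 in the miR-21 Total RNA of replicate 1, against 5.56 with the control vector, and 6.59 against 6.69 in replicate 2. Its difference was -0.23 (interval -0.93 to 0.46, adjusted p = 1.00). The BCL2 arrays with the miR-21 construct were thus the lower ones in both replicates, by less than the interval can tell from 0. In AGO2 IP its construct difference was 0.35 in replicate 1 and -0.56 in replicate 2.

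With all arrays, BIK gave the largest construct difference of the 9 genes in AGO2 IP. It read 8.54 with the miR-21 construct and 7.90 with the control vector in replicate 1, and 9.12 against 7.32 in replicate 2. The difference was 1.22 (SE 0.48, interval 0.13 to 2.31; unadjusted p = 0.0320 and adjusted p = 1.00 by limma with the replicate block). The IgG IPs showed a like pattern, with 8.07 (miR-21) and 7.81 (control) in replicate 1 and 8.92 against 7.26 in replicate 2. In Total RNA it read 7.91 (miR-21) and 7.67 (control), then 8.81 and 8.96. The construct difference of BIK in AGO2 IP minus that in IgG IP was 0.26 (interval -1.28 to 1.80) and minus that in Total RNA 1.18 (interval -0.36 to 2.72), and neither passed. The control AGO2 IP and IgG IP arrays of replicate 2, the closest pair above, are the 2 lowest BIK values of that replicate. Without the control AGO2 IP and the miR-21 IgG IP of replicate 2, the BIK difference in AGO2 IP was 0.65 (interval -0.67 to 1.97). That of PMAIP1, at 0.82 (interval -0.42 to 2.06), was then the largest. In this fit the control AGO2 IP is 1 array, that of replicate 1. With all arrays the PMAIP1 difference was 0.58 in replicate 1 and -0.29 in replicate 2.

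BAK1 had its largest construct difference in IgG IP, at 0.99 (SE 0.40, interval 0.09 to 1.89; unadjusted p = 0.0349 and adjusted p = 1.00 with the block). It read 6.48 (miR-21) and 5.95 (control) in replicate 1 and 7.20 against 5.75 in replicate 2. In AGO2 IP the values were 7.12 and 7.13 in replicate 1 and 6.67 and 6.02 in replicate 2, so that only the second pair was apart. In Total RNA the construct difference was -0.01 (interval -0.91 to 0.89). Without the 2 close arrays the BAK1 difference in IgG IP was 0.56 (interval -0.20 to 1.32), and in AGO2 IP it turned to -0.17, against 0.32 with all arrays.

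BCL2L11 was higher with the miR-21 construct in the AGO2 IPs of both replicates, by 0.48 and 0.88, with a difference of 0.68 (SE 0.44, interval -0.32 to 1.68, adjusted p = 1.00 with the block). Without the 2 close arrays it was 0.31 (interval -0.53 to 1.16). In Total RNA its difference was 0.06 (interval -0.94 to 1.06). In AGO2 IP 4 of the 9 genes (BCL2L11, BAD, BIK and BCL2L1) were higher in both replicates and 0 lower in both. In IgG IP 2 were higher and 2 lower in both, where 27.8% and 25% of all tested probe sets were. In Total RNA 1 was higher and 2 were lower in both, where 29.2% and 21.1% of all tested probe sets were. Over the 26 probe sets 6 were higher and 6 lower with the miR-21 construct in both AGO2 IP pairs, where 27.1% and 18.2% of all tested probe sets were.

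**Figure D4:**
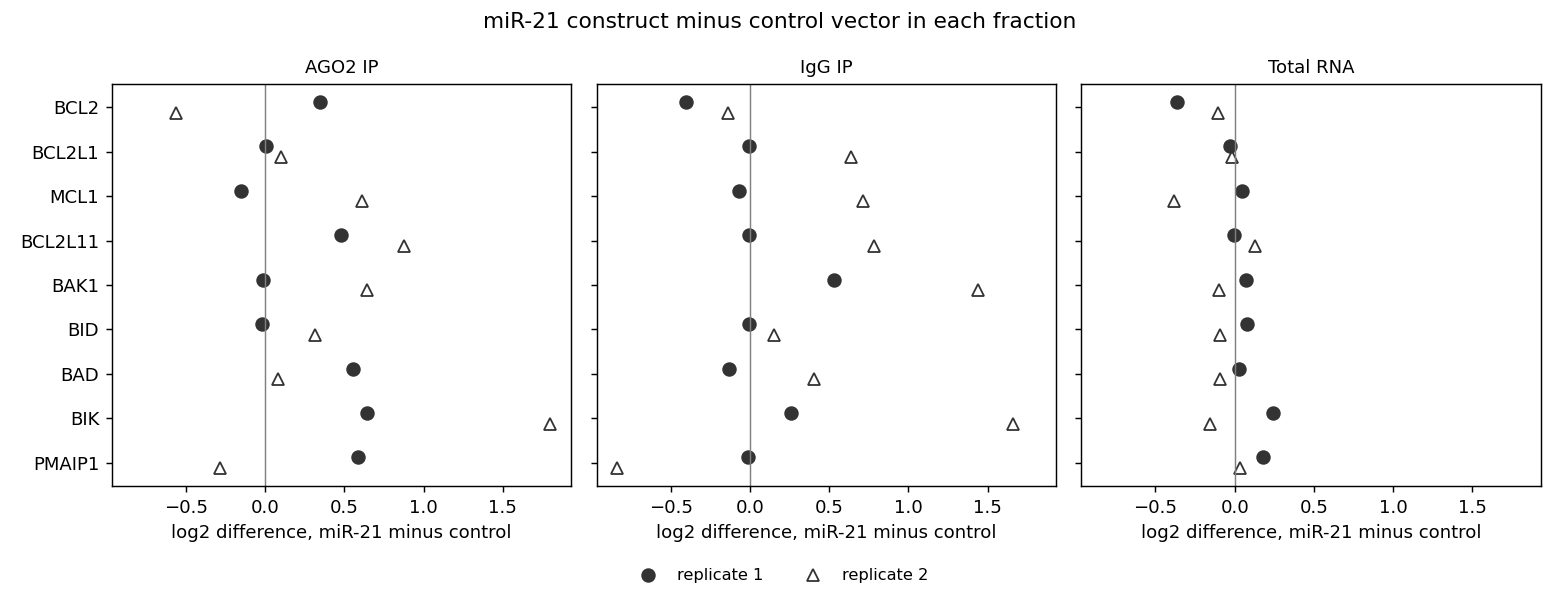
Log2 difference of the miR-21 construct minus the control vector for the 9 genes in AGO2 IP, IgG IP and Total RNA, 1 point for each replicate number. The Total RNA points lie between -0.38 and 0.24, while those of the IPs spread from -0.84 to 1.80, and the widest are BIK and BAK1 in replicate 2.

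Pro-survival and pro-death genes were next set beside each other. With the block, AGO2 IP against Total RNA had 1 of 3 pro-survival genes that rose (MCL1), while of 6 pro-death genes 1 rose (BCL2L11) and 1 fell (BAD). The median difference was 0.10 over the pro-survival genes, 0.21 over the pro-death genes and -0.05 over all tested probe sets. The mean pro-survival level minus the mean pro-death level of an array, used as a description with no test, was higher in AGO2 IP than in Total RNA in 4 of 4 pairs. The 4 differences were 0.12 and 0.21 in replicate 1 and 0.19 and 0.59 in replicate 2 (miR-21 and control, mean 0.27, SD 0.21, n = 4 pairs). The 3 pro-survival genes differed by 1.67 (MCL1), 0.10 (BCL2) and -0.52 (BCL2L1), so the higher pro-survival mean rests on MCL1. The measure depends on BAD as well, whose difference of -1.31 lowers the pro-death mean, while that of BCL2L11 (1.39) raises it. It is therefore no separate result about the pro-survival genes. With the mean of all tested probe sets of a gene in place of the representative, the mean of the 4 differences was 0.61. That value includes the dim MCL1 probe sets that passed the level filter through the IP arrays, so it is no independent support.

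Against IgG IP the same measure differed by 0.33 (miR-21) and 0.37 (control) in replicate 1 and by -0.27 and 0.05 in replicate 2 (mean 0.12, SD 0.30). Between the constructs in AGO2 IP, 6 of 6 pro-death genes had a difference above 0 (median 0.32) and 2 of 3 pro-survival genes (median 0.05), with 0 of 9 called. These counts are of representative probe sets, and the median over all tested probe sets was 0.06. The other tested probe sets of BID and PMAIP1 lay below 0, that of BAD above 0 and those of BCL2L11 on both sides. Without the 2 arrays named above, 5 of 6 pro-death genes and 1 of 3 pro-survival genes were above 0. In Total RNA 3 of 6 pro-death and 0 of 3 pro-survival genes were above 0, with medians of 0.02 and -0.17. None of these class medians was tested.

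Of 12 other BCL2 family genes on a list drawn up for naming, 11 had a probe set here and 8 passed the level filter. None was called in AGO2 IP against Total RNA with the block, where the median was 0.27 and the range -0.37 to 1.75. BCL2L12, an atypical member, had the highest value (1.75, SE 0.68, adjusted p = 0.119). Without the 2 close arrays of replicate 2, BCL2L12 was 2.54 higher in AGO2 IP than in Total RNA and 2.68 higher than in IgG IP. Over IgG IP it was 1.35 higher with all arrays. The fit without the 2 arrays kept no AGO2 IP and IgG IP of the same construct in replicate 2. Within replicate 1 alone BCL2L12 rose by 2.70 over IgG IP (adjusted p = 0.00111) and by 2.91 over Total RNA (adjusted p = 0.000854), and within replicate 2 alone it differed by 0.00 and 0.60. BAX, the pore former related to BAK1, differed by 0.70 (adjusted p = 0.0777) and rose in IgG IP against Total RNA by 1.08 (adjusted p = 0.0483). Without the 2 arrays of replicate 2, BAX differed by 1.26 in IgG IP against Total RNA, with an adjusted p of 0.0753. BMF and HRK, both BH3-only genes, differed by 0.37 each in that comparison with Total RNA.

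Of 16 genes of the mitochondrial death pathway below the family, 13 were tested. In AGO2 IP against Total RNA with the block, 0 rose and 3 fell, and the median was -0.24. APAF1, the scaffold of the apoptosome, differed by -0.95 (adjusted p = 0.0344), BIRC5 (survivin) by -0.82 (adjusted p = 0.0381) and ENDOG, a mitochondrial nuclease, by -0.76 (adjusted p = 0.0479). APAF1 and BIRC5 also fell without the 2 arrays of replicate 2 (adjusted p = 0.00848 and 0.0272), while ENDOG had an adjusted p of 0.0683. VDAC1, a channel of the outer mitochondrial membrane, had the highest value, 0.69 (adjusted p = 0.0659). With the block, none of the 13 was called in IgG IP against Total RNA or between the constructs. Within replicate 2 alone, where 29% of all probe sets were called in IgG IP against Total RNA, AIFM1, a mitochondrial flavoprotein, rose (1.26) and HTRA2, a mitochondrial protease, (-0.91), ENDOG (-0.84) and APAF1 (-0.80) fell; AIFM1 and HTRA2 are named after their values were seen. With the block, 9.91% of all tested probe sets fell in AGO2 IP against Total RNA, so 3 of 13 is to be read beside that share.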

How the data were processed

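RNA of 12 Jurkat samples was measured on Affymetrix arrays. The deposited log2 values were made by the authors with RMA, per the submitters' processing notes; its settings, its version and any joint normalization of the arrays are not stated in the labels used here. Each array held 54675 probe sets, 62 of them controls. The platform annotation listed 42898, of which 41091 had 1 gene symbol. Symbols and gene IDs of all 9 genes matched RefSeq. No raw intensities were used, and the number of arrays limits the precision.

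Probe sets with 1 symbol and a 12-array mean of at least 4.02 (23123) were fitted with limma 3.58.1 in R 4.3.3 and the package data.table (version 1.17.8), as 6 group means (6 residual degrees of freedom), and again with the replicate number as a block (5). Calls used a Benjamini-Hochberg adjusted p under 0.05 over all of them. Fraction contrasts are means over both constructs. The fits within 1 replicate number held fraction and construct, with the 2 constructs in place of replicates. The labels do not say what a replicate number shares; every pair of groups correlated in its deviations (0.429 to 0.875, median 0.605), so the numbers were treated as pairing the arrays. The scripts were tested on simulated data. Figures used Python 3.11.15, pandas 2.3.3 and matplotlib 3.10.9.

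Each gene was represented by its probe set with the highest mean. The 9 genes, the 2 gene lists and the markers were chosen with earlier results of these data known. Named genes of the lists were those called in either fit and up to 4 with the largest difference in AGO2 IP against Total RNA. The 39 alternatives covered centring, normalization, filters, 1 probe set per gene, the block, single arrays and each replicate number alone.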

Additional observations from a re-analysis of the deposited data

Results flagged for a closer look

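PMAIP1, the NOXA gene, was flagged on its representative probe set. Alone of the 9, it moved one way between the constructs in IgG IP and the opposite way in Total RNA, in both replicates. In IgG IP the miR-21 construct minus the control vector gave -0.01 in replicate 1 and -0.84 in replicate 2. In Total RNA it gave 0.18 and 0.04. The construct difference in IgG IP minus that in Total RNA was -0.53, and this difference was not tested. The other tested PMAIP1 probe set, 204286_s_at, did not show the pattern. In IgG IP it gave 0.07 in replicate 1 and -0.50 in replicate 2. Each group held 2 arrays, so single outlying arrays were not searched for.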

How the results depend on the processing

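Without the replicate block, no probe set was called in any of the 8 contrasts with the group means alone, with no filter, with a stricter filter, with 1 probe set per gene, with limma's trend and robust options or without any single array (0 to 0). Median centring called 54 in AGO2 IP against Total RNA and 1 in IgG IP against Total RNA, and quantile normalization 41 and 2. The replicate block called 3191 and 600, and with it median centring gave 2839 and 469, quantile normalization 2843 and 553, no filter 3076 and 784, a stricter filter 2228 and 219, and 1 probe set per gene 2051 and 246. Leaving out the close arrays of replicate 2 with the block gave 4591 and 196, replicate 1 alone 7493 and 619, and replicate 2 alone 7610 and 6695. Leaving out 1 array at a time with the block gave 139 to 5147 and 49 to 1153. The count of 139 came without the miR-21 AGO2 IP of replicate 2 and that of 49 without the control IgG IP of replicate 2. AGO2 IP against IgG IP had calls only without the 2 close arrays (1020) and within replicate 1 alone (3460). The block changed no other contrast's calls.

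The pro-survival minus pro-death measure in AGO2 IP against Total RNA was 0.27 with representative probe sets, 0.26 after quantile normalization and 0.61 with the mean of all tested probe sets of a gene. The last value includes the MCL1 probe sets that were dim in Total RNA. MCL1, BCL2L11 and BAD kept their calls in AGO2 IP against Total RNA with the block under centring, quantile normalization, both filters and 1 probe set per gene. No difference of the 9 genes called with the block over all arrays changed sign. Values called within 1 replicate number had the opposite sign in the other for BAK1 in AGO2 IP against Total RNA (0.75 and -0.08) and against IgG IP (0.91 and -0.13), MCL1 against IgG IP (1.70 and -0.06), and PMAIP1 against Total RNA (1.24 in replicate 2 and -0.30 in replicate 1). With 2 arrays a group and 2 scales of values, the cause of the difference between the replicate numbers was not tested.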

Other observations

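The replicate numbers differed for PMAIP1 more than for nearly all probe sets. Its 2 tested probe sets were 2.94 and 3.11 higher in replicate 2 than in replicate 1, which placed them at percentiles 98.3 and 98.9 of all tested probe sets. BCL2L1 on 212312_at (-0.13), BAK1 (-0.16) and BAD on 209364_at (-0.09) were higher in replicate 1, where the median over all tested probe sets was 1.10 higher in replicate 2.

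For each of the 9 genes, the other genes with the most similar pattern were sought over the 12 arrays, by Pearson r after the mean of each replicate number was taken away, among 12824 genes with 1 probe set each. The arrays share replicate numbers and fractions, so r is a description. E2F5 (0.995) and NUTM2A-AS1 (0.995) were most like BCL2L11, CD83 (0.990) and ZNF383 (0.987) most like MCL1, and CLPTM1L (0.993) and MYH10 (0.992) most like BAD. KIN (0.923) and IRAK1BP1 (0.855) were most like BCL2, and SLC25A1 (0.981) and SCRN2 (0.980) most like BCL2L1. VPS37B (0.975) and GAA (0.972) were most like BAK1, POLR3K (0.960) and SIGLEC1 (0.930) most like BID, EDEM2 (0.981) and RNF44 (0.979) most like BIK, and DCPH1 (0.984) and UGP2 (0.983) most like PMAIP1.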
